A study of Mus musculus with 6 samples.

Results

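The 9 genes described here, Sqle, Lss, Cyp51, Msmo1, Nsdhl, Hsd17b7, Ebp, Sc5d and Dhcr7, encode enzymes that turn squalene into cholesterol. They were taken by symbol, in pathway order, from a table of 34714 genes measured in mouse kidney. All 9 were found, and all 9 had a mean of at least 1 FPKM over the 6 libraries, the level required for testing. FPKM divide the fragments of a gene by its length and by the total of its library, so levels of different genes can be set side by side. The samples were 3 Hspa8 knockout kidneys and 3 wild-type kidneys, from mice 8 weeks of age on normal chow. Hspa8 encodes HSC70, a constitutive cytosolic chaperone of the HSP70 family, and the study concerns its effect on how INSIG holds SCAP and on the SREBPs, the transcription factors that switch on sterol genes. The mice listed in the labels include Hspa8 flox/flox animals made on C57BL/6J and Cdh16-Cre animals, in which a promoter of kidney tubule epithelium drives Cre. Cells outside the tubules would keep the gene, and the share of tubule cells that lost it was not measured here. The titles of the wild-type samples name C57 and those of the knockout samples name no strain. The sources used here do not give whether any wild-type animal carried Cre or the floxed allele, nor the sex of the mice, nor whether each sample was a separate animal. The p-values therefore rest on the spread between samples that may differ only technically.

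Cholesterol is made in the endoplasmic reticulum from squalene, which is oxidised, closed into the ring sterol lanosterol, and then stripped of methyl groups and reshaped by moving and removing double bonds. The genes of the pathway are known targets of SREBP2, which SCAP carries out of the endoplasmic reticulum when sterols are scarce and INSIG holds back when they are plentiful. Kidney tubule cells, with their extensive folded membranes, both make cholesterol and take it up, and the substrate of the enzyme DHCR7 is also the precursor of vitamin D in skin.

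Control sequences near the starts of these genes are shown first, because SREBPs are known to act on sterol promoters together with NF-Y, a factor that binds the CCAAT box. RefSeq promoter windows of 300 bases (GRCm38.p6, 250 bases before and 50 after an annotated start) matched 8 of the 9 genes, with 10 windows in all, 3 of them for Dhcr7. Every one of the 8 genes had a CCAAT box, in either direction, in at least 1 window. Among all 27025 genes with a window 41.1% had one, and among the 9809 tested genes with a window 42.3% did. The box nearest upstream of the start began between 12 bases (Hsd17b7) and 62 bases (Lss) before it. Each is printed here 5′ to 3′ on the strand that reads CCAAT, in capitals, with 10 bases on either side.

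Lss: gcgagctcggCCAATcagagcatca
Cyp51: ctgtccgccaCCAATctggtcctga
Msmo1: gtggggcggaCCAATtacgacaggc
Nsdhl: atgattttgcCCAATgaggctagtc
Hsd17b7: cgcacctcgaCCAATcaaggctcgg
Ebp: atctgacgaaCCAATcagtacaggg
Sc5d: aggcagccggCCAATcagcagccgg
Dhcr7: tcacagacgaCCAATcggaagtgga

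The box was followed by C in 6 of these 8 sites and by CA in 4, and in 6 of 8 it lay on the strand opposite to the gene. The number of CCAAT boxes per gene was 1 for Lss, Cyp51 and Sc5d, 2 for Ebp and Dhcr7, 3 for Msmo1 and Hsd17b7 and 4 for Nsdhl. The GC box GGGCGG, which binds SP1, was also found in all 8 genes on 1 strand or the other, against 67.5% of the tested genes with a window. The E-box CACGTG was in 3 of the 8, Hsd17b7, Sc5d and Dhcr7, against 11.9%. A core of the sterol regulatory element, TCACNCCAC, was searched on both strands and was in 0 of the 10 windows, against 1.48% of the tested genes. No match says only that these letters are not in these windows. No 2 matches of these motifs overlapped in the 10 windows. Whole windows follow for the 3 genes with the largest fold changes between the genotypes described next, Msmo1, Dhcr7 and Hsd17b7, and for Lss, whose groups did not overlap, with CCAAT and GGGCGG and their reverse complements in capitals, each read along its gene. The Msmo1 window is chr8:64733529-64733828 on the minus strand and the Dhcr7 window chr7:143829964-143830263 on the plus strand. The Hsd17b7 window is chr1:169969156-169969455 on the minus strand and the Lss window chr10:76531355-76531654 on the plus strand.

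Msmo1 window: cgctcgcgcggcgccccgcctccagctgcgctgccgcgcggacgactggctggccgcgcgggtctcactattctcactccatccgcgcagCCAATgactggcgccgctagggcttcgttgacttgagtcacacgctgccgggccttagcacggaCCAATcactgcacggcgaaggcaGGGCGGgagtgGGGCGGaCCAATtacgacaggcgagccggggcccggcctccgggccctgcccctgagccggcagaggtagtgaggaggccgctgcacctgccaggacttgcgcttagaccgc
Dhcr7 window: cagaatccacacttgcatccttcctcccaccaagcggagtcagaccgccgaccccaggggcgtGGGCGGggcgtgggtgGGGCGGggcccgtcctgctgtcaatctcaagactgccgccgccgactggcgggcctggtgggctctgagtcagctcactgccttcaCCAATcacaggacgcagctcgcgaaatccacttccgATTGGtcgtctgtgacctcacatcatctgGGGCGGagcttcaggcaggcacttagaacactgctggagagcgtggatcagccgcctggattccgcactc
Hsd17b7 window: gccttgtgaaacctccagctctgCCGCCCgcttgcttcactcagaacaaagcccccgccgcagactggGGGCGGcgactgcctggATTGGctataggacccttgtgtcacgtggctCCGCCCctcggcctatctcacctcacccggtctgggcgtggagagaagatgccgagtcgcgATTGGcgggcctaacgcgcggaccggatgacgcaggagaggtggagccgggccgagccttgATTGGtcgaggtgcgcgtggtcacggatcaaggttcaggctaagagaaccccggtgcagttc
Lss window: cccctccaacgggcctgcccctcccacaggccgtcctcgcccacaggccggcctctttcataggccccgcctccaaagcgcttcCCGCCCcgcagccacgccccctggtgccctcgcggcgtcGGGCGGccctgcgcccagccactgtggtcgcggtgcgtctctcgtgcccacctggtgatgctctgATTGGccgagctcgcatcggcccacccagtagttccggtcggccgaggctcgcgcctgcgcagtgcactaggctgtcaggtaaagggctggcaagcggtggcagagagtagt

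Of the 3 Dhcr7 windows the printed one held 2 CCAAT boxes, and the windows at the other annotated starts (chr7:143822917-143823216 and chr7:143823149-143823448) held none.

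The transcript of the targeted gene was lower in the knockout tissue and not absent, with groups that did not overlap: Hspa8 averaged 710 ± 66.0 FPKM in knockout and 1156 ± 141 FPKM in wild-type kidneys (SD, n = 3 each). Other gene lists also differed between the libraries, within the groups or between them. Summed FPKM of 5 immediate early genes, which respond within minutes to stress, ran from 18.6 to 138 in knockout and from 18.1 to 168 in wild-type libraries, and replicate 1 of both groups was lowest. A list of 6 red cell genes summed to between 77.6 and 553 FPKM in knockout and between 52.1 and 59.8 FPKM in wild-type libraries. Knockout values lay wholly above wild-type values for 4 of its 5 tested genes, against 2.01% of all tested genes. The heat shock list, chaperones and partners induced by protein stress, had 5 of 5 genes below 0 in log2 fold change, 1 of them with groups apart. Its sums were 55.1, 140 and 139 FPKM in knockout replicates 1 to 3, against 135, 128 and 392 FPKM in wild-type replicates 1 to 3. The extremes were knockout replicate 1 and wild-type replicate 3, and the other libraries lay close together. Endothelial genes were below 0 in 8 of 8 (median -0.36, 4 of them with groups apart), with sums of 92.2 to 121 FPKM in knockout and 121 to 166 FPKM in wild-type libraries. Fibroblast genes were below 0 in 5 of 5 (median -0.35, 2 apart), with sums of 36.7 to 46.3 FPKM in knockout and 47.1 to 65.2 FPKM in wild-type libraries. Podocyte genes were below 0 in 5 of 5 (median -0.30, 0 apart), with sums of 55.4 to 80.6 FPKM in knockout and 71.4 to 102 FPKM in wild-type libraries. The groups were apart on the lower side for 8.57% of all tested genes, no gene of these lists passed limma's test over all genes, no list gene was at 0 throughout, and the part of these lists in the results was not tested. Library sums of all genes lay between 381586 and 416761 FPKM in knockout and between 403895 and 417123 FPKM in wild-type libraries, and 64.9% of the tested genes had a log2 fold change below 0 or at it. Of the defining genes of the adrenal cortex, a neighbouring tissue rich in sterol synthesis, Cyp11b1, Cyp11b2 and Cyp21a1 were listed at 0 in all 6 libraries, and the 8 genes of that list summed to 1.15 to 1.59 FPKM in knockout and 1.28 to 1.56 FPKM in wild-type libraries. Markers of the tissue itself were present throughout, with 9 proximal tubule genes summing to between 34525 and 45881 FPKM in knockout and between 40877 and 46574 FPKM in wild-type libraries, most of it from Kap. Xist did not exceed 0.0241 FPKM in any library, while the 4 Y-linked genes of the list were above 4 FPKM in all 6, the pattern of male tissue in both genotypes, given here because Nsdhl and Ebp are X-linked.

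Differences between the genotypes in the 9 enzyme transcripts were small, and none passed the test. The log2 fold change of FPKM + 1, knockout over wild-type, was above 0 for 7 genes and below 0 for 2, with a median of 0.09, while the median of all tested genes was -0.04. The largest was that of Msmo1 (0.22), followed by Dhcr7 (0.17), Hsd17b7 (0.16) and Lss (0.15), and the lowest that of Cyp51 (-0.07). By limma with Benjamini-Hochberg adjustment over the 12174 tested genes, 0 of 9 members and 0 of all genes passed at 0.05, so the share of all genes called is 0% in either direction, and the smallest adjusted p of any gene was 0.866. At an unadjusted p under 0.05 were 0 members, against 0.953% of all genes on the higher and 4.21% on the lower side. Knockout values lay wholly above wild-type values for 1 member, Lss, against 2.01% of all tested genes, and wholly below for 0, against 8.57%. A fold change above 0 was found for 35.1% of all tested genes. With library medians equalised that share was 54.1% and the median of the members 0.15. The members were chosen with earlier results of these data known, and the pathway's lean was part of those results. In whole tissue fewer cells of a type and less RNA per cell cannot be told apart.

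**Figure D1:**
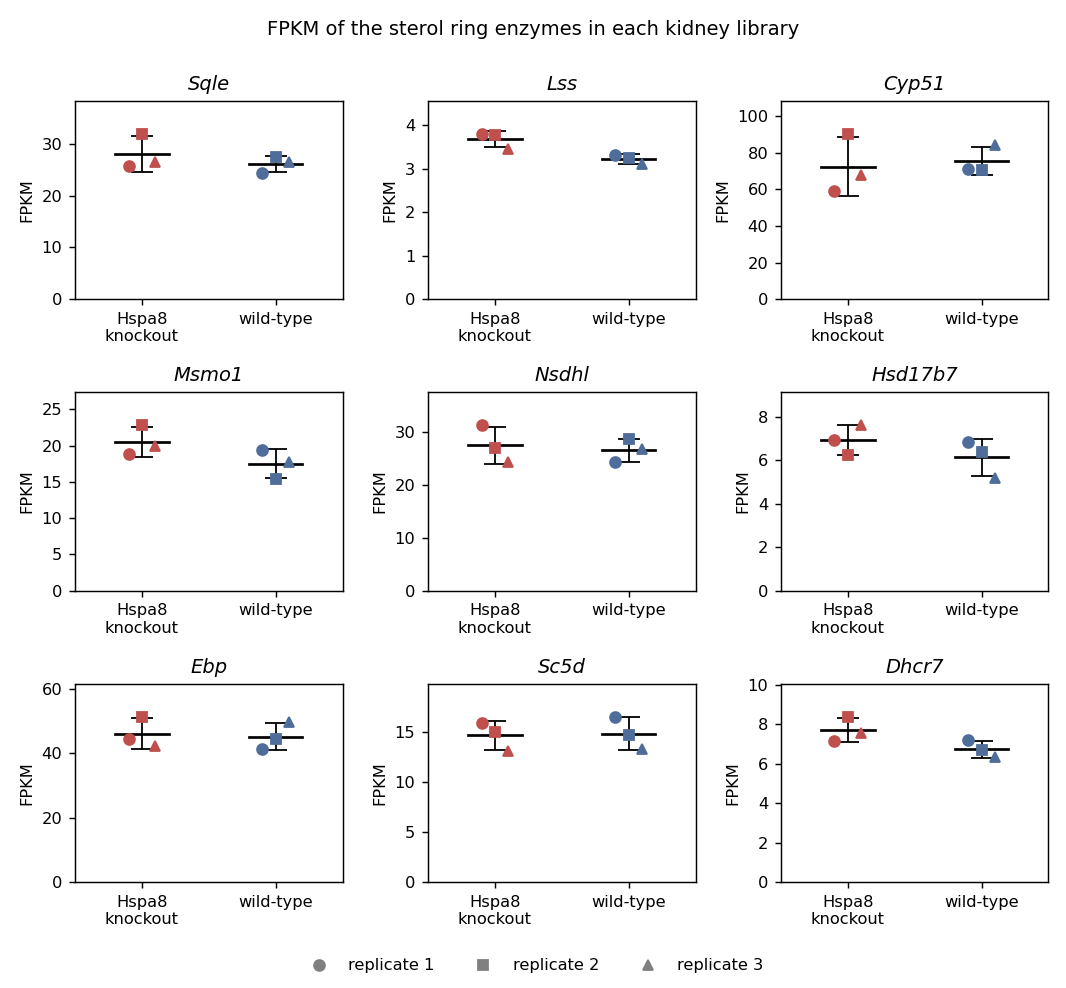
FPKM of each enzyme in the 3 Hspa8 knockout libraries (red, left) and 3 wild-type libraries (blue, right), with marker shape giving the replicate number, thick bars the group means and thin bars 1 SD. The groups overlap in every panel except Lss, where knockout values run from 3.46 to 3.81 FPKM and wild-type values from 3.11 to 3.33 FPKM.

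The entry of squalene into the ring pathway is catalysed by squalene epoxidase, encoded by Sqle (chromosome 15, 59315092 to 59331193 in GRCm38.p6), which adds the oxygen and is a known control point. Sqle had 25.7, 32.0 and 26.4 FPKM in knockout replicates 1, 2 and 3, and 24.4, 27.5 and 26.5 FPKM in wild-type replicates 1, 2 and 3. Knockout replicate 2 stood above all other libraries, and the other 2 knockout values lay inside the wild-type range. The log2 fold change was 0.09 (95% interval -0.15 to 0.34; limma adjusted p = 0.998; exact two-sided permutation p = 0.6), and it was -0.00101 without knockout replicate 2. Marchf6, whose human product marks squalene epoxidase for degradation, averaged 41.5 ± 4.75 FPKM in knockout and 41.1 ± 8.26 FPKM in wild-type kidneys.

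Lanosterol synthase, the product of Lss (chromosome 10, 76531565 to 76557139), folds the epoxide into the sterol rings. Lss had 3.81, 3.78 and 3.46 FPKM in knockout replicates 1 to 3, against 3.33, 3.24 and 3.11 FPKM in wild-type replicates 1 to 3. All 3 knockout values exceeded all 3 wild-type values, with a gap of less than 1 SD of the knockout group between the nearest. The means were 3.68 ± 0.190 FPKM in knockout and 3.23 ± 0.111 FPKM in wild-type kidneys (SD, n = 3 each). The log2 fold change was 0.15 (95% interval -0.05 to 0.34; limma adjusted p = 0.974), and the exact permutation p was 0.1, the smallest that 3 against 3 can give. Lss was the lowest of the 9 enzymes, and its fold change was 0.18 with a pseudocount of 0.1 in place of 1. An antisense gene, 4930483K19Rik, overlaps Lss over 11268 bases; without strand in the counting its reads could not be told apart, and it was listed at no more than 0.162 FPKM in any library.

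Cyp51 (chromosome 5, 4080674 to 4104697) encodes the cytochrome P450 that removes the first methyl group of lanosterol, the step that azole antifungals block in fungi. It had 59.1, 90.2 and 67.9 FPKM in knockout replicates 1 to 3, and 71.3, 70.3 and 84.0 FPKM in wild-type replicates 1 to 3. The lowest and the highest of the 6 values were both in knockout libraries, and the ratio between them, 1.53, was the largest among the 9 enzymes. The means were 72.4 ± 16.1 FPKM in knockout and 75.2 ± 7.64 FPKM in wild-type kidneys (SD, n = 3 each), with a log2 fold change of -0.07 (95% interval -0.43 to 0.29; limma adjusted p = 0.998; exact permutation p = 0.8). Its direction depended on single libraries: leaving out knockout replicate 1 gave 0.06, leaving out wild-type replicate 3 gave 0.01 and leaving out knockout replicate 2 gave -0.24. The end of Cyp51 overlaps Akap9 on the other strand by 166 bases in the GENCODE annotation.

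The methyl groups that remain are removed by a set of enzymes that act in turn. Msmo1 (chromosome 8, 64718123 to 64733578) encodes the methylsterol oxidase that begins this removal. It had 18.8, 22.8 and 19.9 FPKM in knockout replicates 1 to 3, against 19.4, 15.4 and 17.7 FPKM in wild-type replicates 1 to 3. Wild-type replicate 1 lay above the lowest knockout library, so the groups overlapped by this 1 value. The means were 20.5 ± 2.07 FPKM in knockout and 17.5 ± 1.99 FPKM in wild-type kidneys (SD, n = 3 each), a ratio of 1.17. The log2 fold change of 0.22 (95% interval -0.04 to 0.48) had a limma adjusted p of 0.973 and an exact permutation p of 0.2. It was 0.14 without wild-type replicate 2, the lowest library.

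Nsdhl (chromosome X, 72918521 to 72958528), the sterol dehydrogenase that splits off the oxidised carbon and is mutated in human CHILD syndrome, had 31.3, 26.9 and 24.3 FPKM in knockout replicates 1 to 3, and 24.3, 28.6 and 26.7 FPKM in wild-type replicates 1 to 3. The extremes both lay in knockout libraries, and the wild-type values fell between them. Its log2 fold change was 0.04 (95% interval -0.21 to 0.30), and it was -0.05 without knockout replicate 1 and -0.01 without wild-type replicate 1. Hsd17b7 (chromosome 1, 169949535 to 169969242) encodes the ketosteroid reductase that completes each round. It had 6.91, 6.25 and 7.61 FPKM in knockout replicates 1 to 3, against 6.83, 6.39 and 5.17 FPKM in wild-type replicates 1 to 3. Wild-type replicate 3 was lowest and the other libraries of both groups interleaved. The log2 fold change was 0.16 (95% interval -0.11 to 0.42), and without wild-type replicate 3 it was 0.06. Neither gene passed, with a limma adjusted p of 0.998 for each.

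The late steps move the ring double bond and then add and remove others. Ebp (chromosome X, 8185329 to 8193512), the sterol isomerase that is mutated in a human X-linked chondrodysplasia, had 44.5, 51.5 and 42.2 FPKM in knockout replicates 1 to 3, and 41.3, 44.5 and 49.8 FPKM in wild-type replicates 1 to 3. Sc5d (chromosome 9, 42251592 to 42264300), the desaturase that makes the substrate of DHCR7, had 15.9, 15.0 and 13.0 FPKM in knockout replicates 1 to 3, and 16.5, 14.7 and 13.3 FPKM in wild-type replicates 1 to 3. Both groups spanned almost the same range for Ebp and for Sc5d. The log2 fold change was 0.03 for Ebp (95% interval -0.22 to 0.28), -0.05 without knockout replicate 2 and -0.03 without wild-type replicate 1. For Sc5d it was -0.01 (95% interval -0.27 to 0.24) and turned to 0.04, 0.03 and 0.03 with library medians, sums and quantiles equalised. The limma adjusted p was 0.998 for each of these 2 genes. Dhcr7 (chromosome 7, 143823167 to 143848410) encodes the reductase that removes the last extra ring double bond, whose activity is lost in human Smith-Lemli-Opitz syndrome. It had 7.18, 8.39 and 7.57 FPKM in knockout replicates 1 to 3, against 7.18, 6.71 and 6.32 FPKM in wild-type replicates 1 to 3. Knockout replicate 1 and wild-type replicate 1 were nearly equal, at 7.176 and 7.181 FPKM, and every other knockout value exceeded every wild-type value. The means were 7.71 ± 0.621 FPKM in knockout and 6.74 ± 0.429 FPKM in wild-type kidneys (SD, n = 3 each), a ratio of 1.14, with a log2 fold change of 0.17 (95% interval -0.04 to 0.38; limma adjusted p = 0.973; exact permutation p = 0.2). With knockout replicate 2 and wild-type replicate 3 left out, the fold change of Dhcr7 was 0.08.

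**Figure D2:**
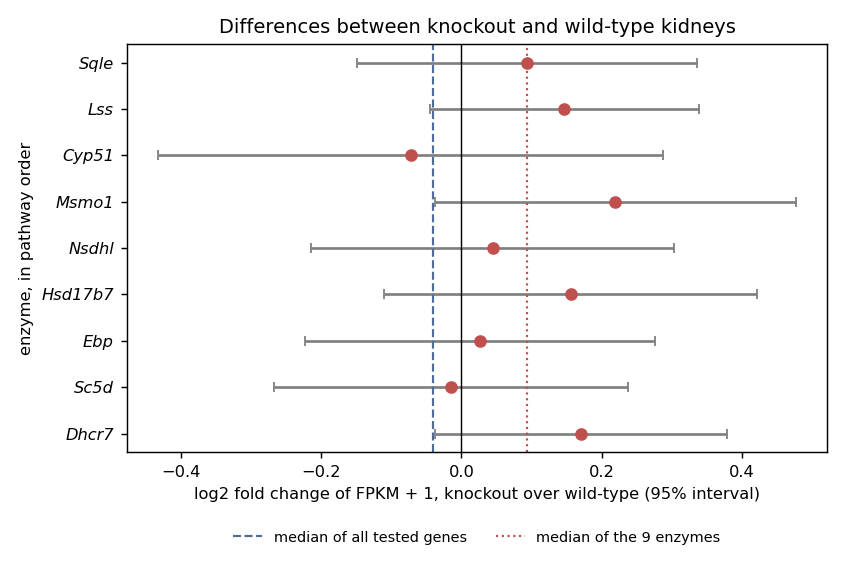
Log2 fold change of FPKM + 1, knockout over wild-type, for each enzyme in pathway order from top to bottom, with limma's unadjusted 95% interval. Every interval crosses 0, the dotted line marks the members' median of 0.09 and the dashed line the median of all tested genes, -0.04.

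The width of these intervals sets what the comparison could show. The upper bounds ran from 0.24 for Sc5d to 0.48 for Msmo1 and the lower bounds from -0.43 for Cyp51 to -0.04 for Msmo1, all on the log2(FPKM + 1) scale. An interval that holds 0 does not show that a transcript was the same in both genotypes.

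Levels of the enzymes spanned a wide range. Cyp51 averaged 73.8 FPKM over the 6 libraries, above 92.8% of the tested genes, and was followed by Ebp (45.6 FPKM), Sqle (27.1 FPKM), Nsdhl (27.0 FPKM), Msmo1 (19.0 FPKM), Sc5d (14.7 FPKM), Dhcr7 (7.22 FPKM), Hsd17b7 (6.53 FPKM) and Lss (3.45 FPKM). Cyp51 exceeded Ebp, Ebp exceeded Sqle, Nsdhl exceeded Msmo1, Sc5d exceeded Dhcr7 and Hsd17b7 exceeded Lss with no overlap of their ranges. Sqle exceeded Nsdhl in 3 of the 6 libraries only, so that order is within the spread. Msmo1 exceeded Sc5d in 6 of 6 and Dhcr7 exceeded Hsd17b7 in 5 of 6 libraries, with overlapping ranges.

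Within a library the share of each gene in the summed FPKM of the 9 does not depend on how the library was scaled. The sums were 213, 257 and 212 FPKM in knockout replicates 1 to 3, against 215, 217 and 233 FPKM in wild-type replicates 1 to 3. Cyp51 took 31.6% ± 3.73 of the sum in knockout and 33.9% ± 1.98 in wild-type kidneys, and Ebp took 20.3% ± 0.530 in knockout and 20.4% ± 1.07 in wild-type kidneys (SD, n = 3 each). Msmo1 took 9.02% ± 0.303 in knockout and 7.91% ± 1.00 in wild-type kidneys, and Dhcr7 took 3.40% ± 0.150 in knockout and 3.05% ± 0.315 in wild-type kidneys. For Lss the higher level in every knockout library did not carry over to its share, which was 1.79%, 1.47% and 1.63% in knockout replicates 1 to 3, against 1.55%, 1.49% and 1.34% in wild-type replicates 1 to 3. The groups overlapped in the shares of all 9 genes, and exact two-sided permutation tests gave p between 0.2 (Dhcr7) and 1 (Ebp), or 0.72 and above after Benjamini-Hochberg adjustment over the 9 comparisons.

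**Figure D3:**
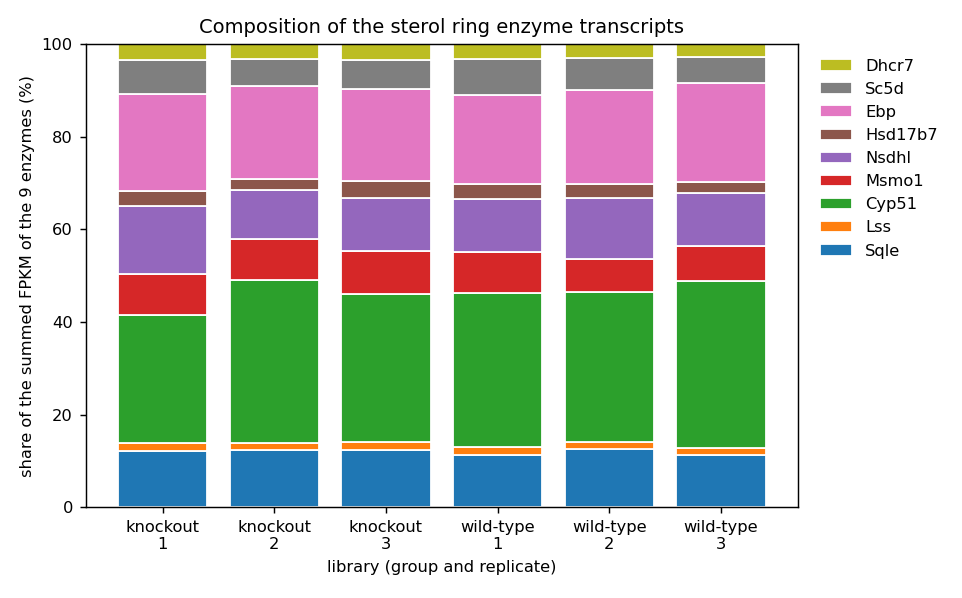
Share of each enzyme in the summed FPKM of the 9, in percent, for the 3 knockout libraries (left) and the 3 wild-type libraries (right), stacked in pathway order from the bottom. Cyp51 is the largest block in all 6 bars, from 27.7% in knockout replicate 1 to 36.1% in wild-type replicate 3.

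The 9 genes did not move as a block across the libraries. Knockout replicate 2 was the highest library for 5 of them, Sqle, Cyp51, Msmo1, Ebp and Dhcr7, while it was the highest for 18.8% of all tested genes. Knockout replicate 1 was highest for Lss and Nsdhl, knockout replicate 3 for Hsd17b7 and wild-type replicate 1 for Sc5d. Wild-type replicate 3 was the lowest library for Lss, Hsd17b7 and Dhcr7, yet it was the second highest for Cyp51 and Ebp. Relative to the mean of all 6 libraries, Cyp51 stood at 0.30 in knockout replicate 2, -0.30 in knockout replicate 1 and 0.20 in wild-type replicate 3 on the log2(FPKM + 1) scale, and Ebp at 0.17, -0.03 and 0.13 in the same libraries.

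Markers of nephron segments differed across those libraries as well. The 5 genes of the thick ascending limb list summed to 1208, 1886 and 1680 FPKM in knockout replicates 1 to 3, against 1382, 1505 and 1784 FPKM in wild-type replicates 1 to 3. Knockout replicate 2 and wild-type replicate 3 were highest and knockout replicate 1 lowest, as for Cyp51. In knockout replicate 3 the list lay above wild-type replicates 1 and 2, whereas Cyp51, at 67.9 FPKM, lay below both. Within the list, Egf and Kcnj1 were highest in knockout replicate 3, at 348 and 68.1 FPKM. The rest of the list had knockout replicate 2 and wild-type replicate 3 highest, and all 5 genes were lowest in knockout replicate 1. None of the 5 thick limb genes was at 0, and 3 of them were above and 2 below 0 in log2 fold change. The 9 proximal tubule genes stood, on average, at 0.09, -0.14 and -0.04 from their mean over the 6 libraries on the log2(FPKM + 1) scale in knockout replicates 1 to 3, and at 0.10, 0.04 and -0.06 in wild-type replicates 1 to 3. Knockout replicate 2 and wild-type replicate 3 were lowest for that list by this measure. By summed FPKM, the measure used above for the thick ascending limb, they were highest, at 45881 and 46574 FPKM, most of it from Kap. The direction for the proximal tubule list thus depended on the measure. Over all tested genes, deviations from the group means also went together in knockout replicate 2 and wild-type replicate 3 (r = 0.55). This was the largest r between any knockout and any wild-type library. The shared places of these libraries are thus not particular to Cyp51, Ebp or the thick ascending limb list. The part of segment makeup in the values of Cyp51 and Ebp was not tested. Without knockout replicate 2 and wild-type replicate 3, the log2 fold change of Cyp51 was -0.16, that of Sqle 0.01, that of Msmo1 0.16 and the median of the 9 genes 0.06.

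**Figure D4:**
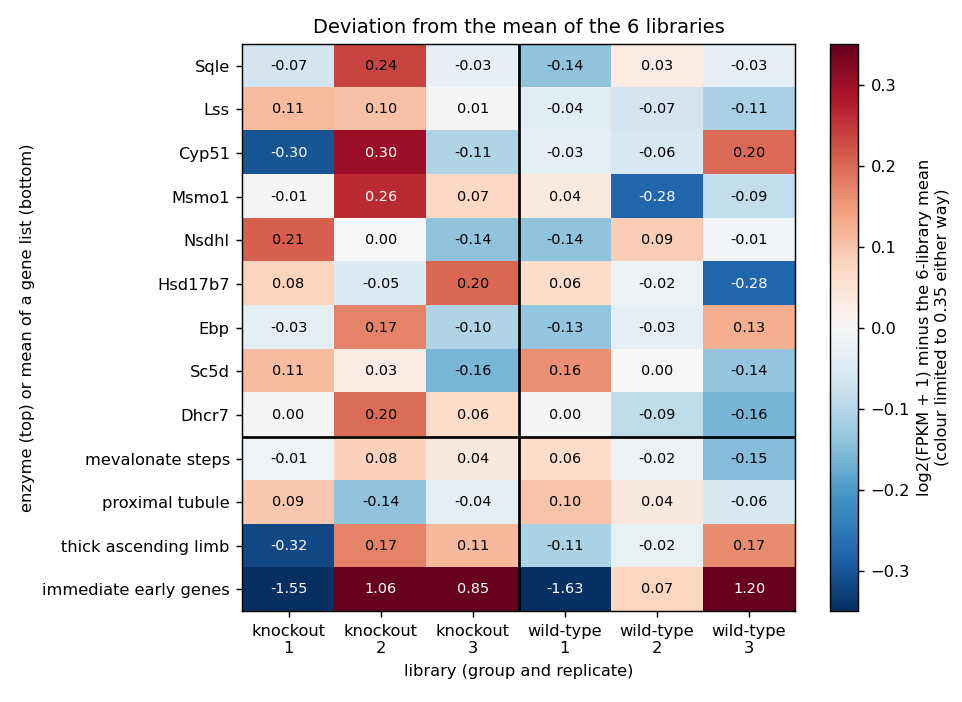
Log2(FPKM + 1) of each enzyme minus its mean over the 6 libraries (top 9 rows) and the mean of the same measure over 4 gene lists (bottom 4 rows), with knockout libraries left and wild-type libraries right of the line. Knockout replicate 2 is highest for 5 enzymes, and Cyp51 and Ebp share their 2 highest libraries, knockout replicate 2 and wild-type replicate 3, with the thick ascending limb list.

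Fold changes were also small for genes whose proteins serve the ring enzymes. Por, the reductase that passes electrons to CYP51 and squalene epoxidase, averaged 122 ± 8.35 FPKM in knockout and 115 ± 6.78 FPKM in wild-type kidneys (SD, n = 3 each). Of the 6 genes listed as electron donors and scaffold, 3 were above and 3 below 0, with a median of 0.01, and 0 passed limma's test over all genes. Pgrmc1, a haem-binding partner of P450 enzymes, was the 1 with groups apart, at 100, 102 and 99.5 FPKM in knockout replicates 1 to 3, against 109, 107 and 103 FPKM in wild-type replicates 1 to 3 (log2 fold change -0.08). With 8.57% of all tested genes apart on that side, 1 of 6 is no result about the list. Of 3 further enzymes of late sterol synthesis 3 had a log2 fold change of FPKM + 1 above 0 and 0 passed. Tm7sf2 and Lbr, alternative reductases for the step after CYP51, averaged 8.60 ± 1.03 and 11.5 ± 1.06 FPKM in knockout, against 8.56 ± 0.914 and 11.6 ± 2.09 FPKM in wild-type kidneys.

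The steps before squalene had a similar median. Of 9 genes of the mevalonate pathway up to squalene, 6 were above and 3 below 0 with a median log2 fold change of 0.09, the same as that of the ring enzymes to 2 decimals, and 0 passed. Fdps, the farnesyl diphosphate synthase, had the largest, 0.30, with 13.6, 11.5 and 12.4 FPKM in knockout replicates 1 to 3, against 11.7, 9.27 and 9.02 FPKM in wild-type replicates 1 to 3. Fdft1, which makes squalene itself, averaged 7.65 ± 0.815 FPKM in knockout and 6.60 ± 0.882 FPKM in wild-type kidneys (SD, n = 3 each). All 9 genes of de novo fatty acid synthesis, the SREBP1 arm, were above 0, with a median of 0.10, and 0 passed. Of 7 sterol sensing genes, 5 were above and 2 below 0, with a median of 0.11, and 0 passed. Knockout values lay wholly above wild-type values for 2 of them, Insig1 and Srebf1, against 2.01% of all tested genes. Insig1, itself an SREBP target, had 19.4, 25.1 and 23.0 FPKM in knockout replicates 1 to 3, against 13.8, 12.6 and 13.6 FPKM in wild-type replicates 1 to 3. Its log2 fold change was 0.71 (standard error 0.107, limma adjusted p = 0.866). Srebf1 had a log2 fold change of 0.42 (limma adjusted p = 0.866). Srebf2, whose product drives the ring enzymes, had 0.11, with 17.6, 16.1 and 17.2 FPKM in knockout replicates 1 to 3, against 17.2, 14.8 and 14.9 FPKM in wild-type replicates 1 to 3. The upper 95% bounds of the 9 ring enzymes, at most 0.48, lay below the 0.71 estimated for Insig1. The 95% interval of Insig1 itself ran from 0.46 to 0.96, so it overlapped that of Msmo1. Whether Insig1 and the enzymes differed in their response was not tested.

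**Figure D5:**
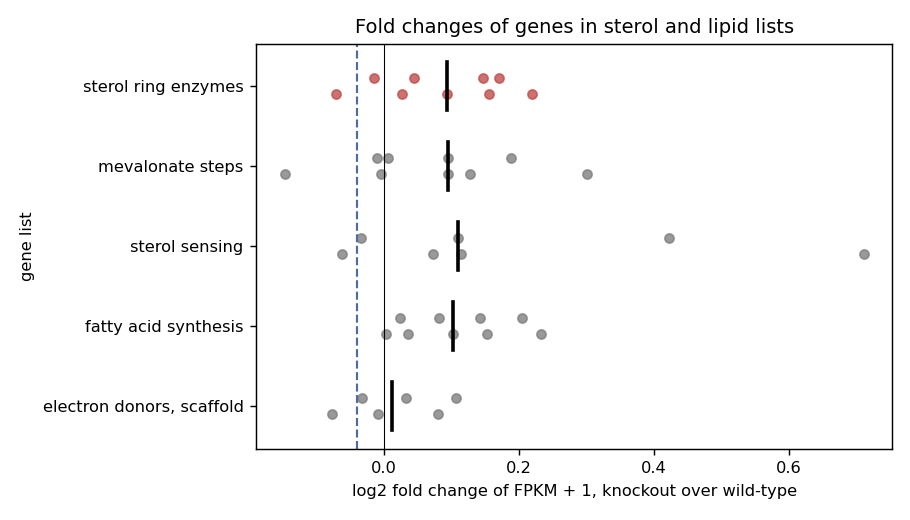
Log2 fold change of FPKM + 1, knockout over wild-type, of each tested gene (points) in 5 gene lists, with the list median as a black bar and the median of all tested genes, -0.04, as a dashed line. The ring enzymes lie between -0.07 and 0.22 around a median of 0.09, and the points farthest right in the sterol sensing list are Srebf1 (0.42) and Insig1 (0.71).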

How the data were processed

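RNA of 3 Hspa8 knockout and 3 wild-type mouse kidney samples was measured by sequencing. Per the labels' protocols, RNA was extracted with a column kit and a SMARTer mRNA kit gave the libraries. The file deposited by the authors is a single table of FPKM for each gene in each library. Per the submitters' processing notes the builds were GRCm38 and mm10, the same assembly. The sources used here do not give the aligner, counter or annotation. Columns were matched to samples by strain or the letters A8 and by number.

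No library pair held an identical value above 0. Among genes under 0.1 FPKM no single ratio between libraries held over 0.625% of them, so read counts could not be recovered and depth is unknown. Low FPKM rest on fewer reads and are less precise.

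Genes with a mean of at least 1 FPKM were transformed to log2(FPKM + 1) and fitted by limma (version 3.58.1, R 4.3.3) on genotype alone with a variance trend. Two-sided p-values were adjusted by Benjamini-Hochberg over 12174 genes, with a threshold of 0.05. The scale understates changes of low genes. Single values had exact permutation tests. The limma step was tested on simulated data. Gene coordinates and promoter windows come from RefSeq (GRCm38.p6), overlaps from GENCODE. Figures were drawn with matplotlib 3.10.9.

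The members and gene lists were chosen with earlier results of these data known. All 9 members were named; of other lists, genes with groups apart or with the smallest p could be, and Marchf6, Por, Tm7sf2, Lbr, Fdft1, Srebf2, Kap and the defining adrenal, Xist and immediate early values were added for their roles or after their values were seen. Some genes of these lists are not reported here by name and stay in the counts and medians. Replicate numbers did not pair the samples. Alternatives changed the pseudocount, filter, scaling, variance model, block and libraries.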

Additional observations from a re-analysis of the deposited data

How the results depend on the processing

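Over 17 alternatives 0 of the 9 enzymes passed and their median log2 fold change stayed above 0, between 0.06 and 0.15. Members above 0 numbered 5 to 8. Members with groups apart numbered 1 as reported, and 0 once genes under a mean of 5 FPKM were dropped (Lss is then untested). They numbered 3, all above, with library medians, sums or quantiles equalised, against 4.97%, 3.64% and 4.35% of all genes apart above. With 1 library left out they numbered 1 to 3, all above except Cyp51, which was below without knockout replicate 2, and of all genes 3.19% to 6.74% were apart above and 11.7% to 23.9% below. Without both knockout replicate 2 and wild-type replicate 3 they numbered 3, of which 2 were above (6.55% of all genes) and Cyp51 below (31.5%). Of all genes, 0 to 5 passed with 1 library left out, the 5 without knockout replicate 2, and 5 passed without that pair. Leaving out 1 library moved the log2 fold change of Sqle between -0.00101 and 0.151, Cyp51 between -0.24 and 0.0614, Nsdhl between -0.049 and 0.126, Ebp between -0.0546 and 0.0962 and Sc5d between -0.086 and 0.0611, which crosses 0 in each; the cause was not tested. Sc5d was also above 0 with library medians (0.0361), sums (0.0271) or quantiles (0.0273) equalised. The other 4 genes, Lss, Msmo1, Hsd17b7 and Dhcr7, stayed above 0 in every alternative that tested them.

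In a fit with a replicate block 0 genes and 0 members passed, and the members' median was 0.0937 as without it; genes at an unadjusted p under 0.05 numbered 417 with the block and 629 without. Same-numbered samples deviated together for number 1 (r = 0.307 over genes) but not for 2 (-0.215) or 3 (-0.321), so the numbers were not taken as pairs. The largest r between a knockout and a wild-type library was 0.55, for knockout replicate 2 and wild-type replicate 3. Depth is unknown, and with 3 libraries a group the exact tests cannot go below 0.1.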

Other observations

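Genes that dispose of sterols or of sterol enzymes also had small fold changes. Of 5 genes of sterol-linked protein turnover 3 were above and 2 below 0, with a median log2 fold change of 0.03. Rnf139, a ubiquitin ligase of the endoplasmic reticulum, was the 1 with groups apart, at 9.07, 9.11 and 9.87 FPKM in knockout replicates 1 to 3, against 11.4, 9.93 and 9.97 FPKM in wild-type replicates 1 to 3, where 8.57% of all tested genes were apart on that side. Of 6 tested genes of sterol use and efflux 2 were above and 4 below 0, with a median of -0.02. Among them Cyp7b1, an oxysterol hydroxylase, had 77.2, 159 and 82.8 FPKM in knockout replicates 1 to 3, against 91.0, 108 and 116 FPKM in wild-type replicates 1 to 3. Its highest library was knockout replicate 2, its second highest wild-type replicate 3 and its lowest knockout replicate 1, the same places as for Cyp51. Cyp7b1 was picked after its values were seen, and knockout replicate 2 and wild-type replicate 3 deviated together over all tested genes (r = 0.55). No gene of these lists passed limma's test over all genes.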
